A study of Mus musculus with 43 samples.

Results

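The S1 segment, the first stretch of the mouse proximal tubule, was compared with the S2 segment that follows it, across genes. A gene entered the comparison when its expression was at least 1 TPM in either segment, which 15689 of 54532 genes were. TPM measures transcript abundance corrected for transcript length and scaled to the same total in each column, so levels can be set side by side between genes of a column. Between columns the values also depend on the few genes that hold much of that total. Both segments were dissected by hand from female C57BL/6 mice of 6 to 8 weeks supplied by Taconic, and 2 to 5 tubules made up a sample. No treatment, transgene or deletion is named for either group. The RNA came from 6 libraries of S1 and 6 of S2, and the deposited table gives 1 value per gene and segment. There is therefore no replicate check on any difference reported here, no SD and no p-value, and the read depth behind the values is unknown. The S1 titles carry the numbers 4 and 5 and the S2 titles the numbers 1, 2 and 3. If these numbers name animals, the segments shared none, and segment and animal cannot be told apart.

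The proximal tubule takes back most of what the glomerulus filters. Its first stretch meets fluid rich in glucose, amino acids, phosphate and bicarbonate, and carries high-capacity transporters, a dense brush border, an active endocytic apparatus and many mitochondria. Further along, high-affinity carriers recover what remains, while organic anion and cation transporters secrete metabolites and drugs into the urine.

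The 5 genes chosen to mark the segments stood on the sides their labels give. Slc5a2, the glucose transporter SGLT2, stood at 2808 TPM in the S1 column and 1.3 in that of S2. Slc5a12, a sodium-coupled lactate carrier, was at 376 and 0.4 TPM, and the phosphate carrier Slc34a3 at 404 and 1.3 TPM. Kap, the kidney androgen-regulated protein, was at 56.5 TPM in S1 against 64255 in S2, and Napsa, the aspartic protease napsin A, at 13.8 and 11494 TPM. All 11 genes of a longer S1 list were at least 2-fold higher in S1, against 6.77% of all genes compared. Of 11 genes of an S2 list 10 were at least 2-fold higher in S2, against 18.1% of all. The exception was Slc22a8, the organic anion transporter OAT3, at 297 TPM in S1 and 349 in S2. Both lists were chosen with earlier results of these data known, so these counts are no independent check of the segments.

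A gene is called higher in a segment below when the difference on the log2(TPM + 1) scale was at least 1, which is 2-fold. By that rule 24.9% of the genes compared differed. Of all compared genes, 1062 (6.77%) were higher in S1, 2840 (18.1%) were higher in S2 and 11787 were neither. The median difference, S1 minus S2, was -0.18. S2 held 15121 genes at 1 TPM or more and S1 12174, with 11606 in common. S1 thus held 27.2% of the calls, a share that turned on the scaling. It was 43.0% after quantile normalization, which moved the median of all genes by 0.21. Median-of-ratios scaling over genes above 0 in both columns, which takes in values under 1 TPM, gave 69.8% and moved the median by 0.62. The same scaling over genes of at least 1 TPM in both, chosen after seeing the data, gave 26.3%. Leaving out mitochondrially encoded genes, Gpx3 and Kap gave 21.9%. Median-of-ratios counts of lists and families below are those over genes above 0 in both.

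**Figure D1:**
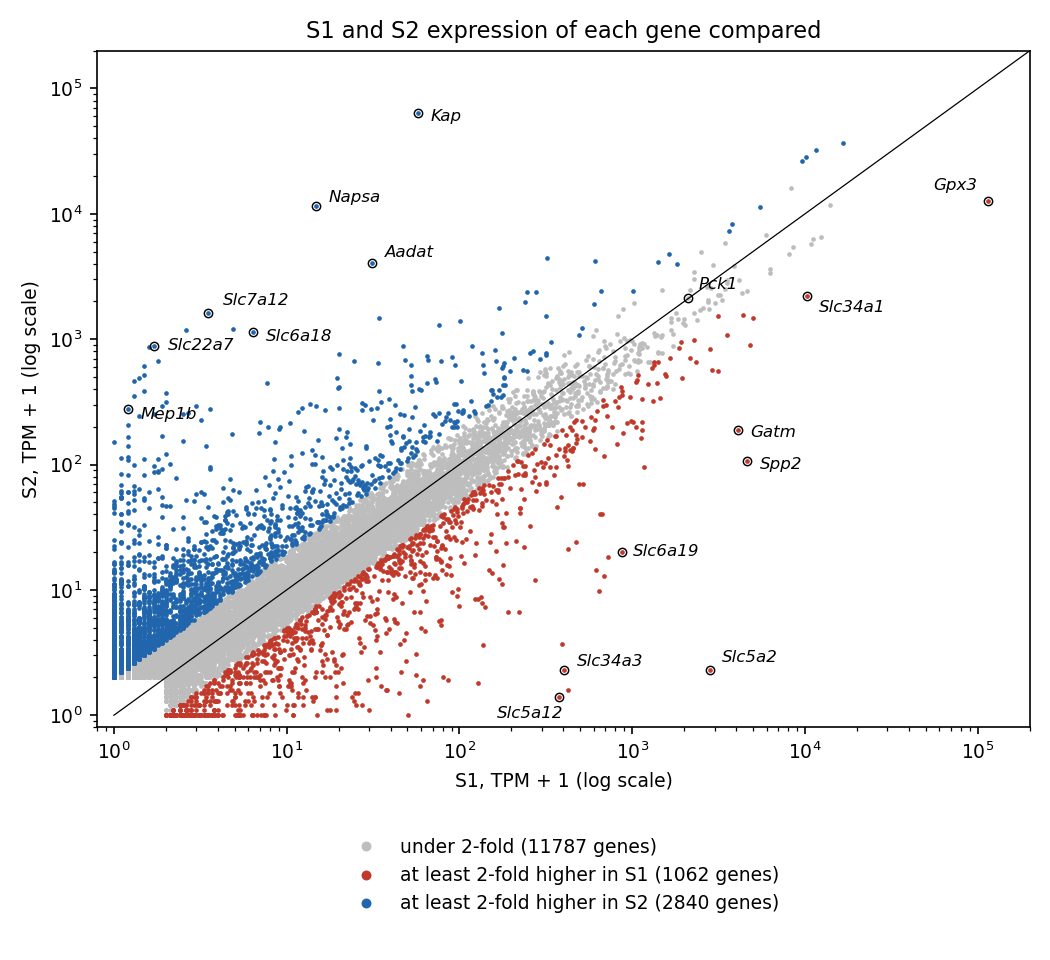
Expression of each compared gene in S1 (horizontal) and S2 (vertical), as TPM + 1 on log axes, with 1 point per gene and the diagonal drawn. The 1062 genes higher in S1 lie below the diagonal and the 2840 higher in S2 above it, with Slc5a2 and Kap among the farthest from it.

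Most of the surplus of S2 calls came from weakly expressed genes. Of the genes higher in S2, 66.3% stayed under 10 TPM in both segments, against 37.7% of those higher in S1. Among 2895 genes whose higher value lay between 2 and 5 TPM, 4.97% were higher in S1 and 29.5% in S2. Between 100 and 1000 TPM the shares were 13.6% and 14.9% of 1402 genes. At 1000 TPM or more the order turned, with 40 of 154 genes (26.0%) higher in S1 and 33 (21.4%) higher in S2. Differences of 16-fold or more were found for 47 genes in favour of S1 and 140 in favour of S2. Genes at 100 TPM or more in S2 and under 1 TPM in S1 numbered 23, and 3 genes had the reverse pattern.

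**Figure D2:**
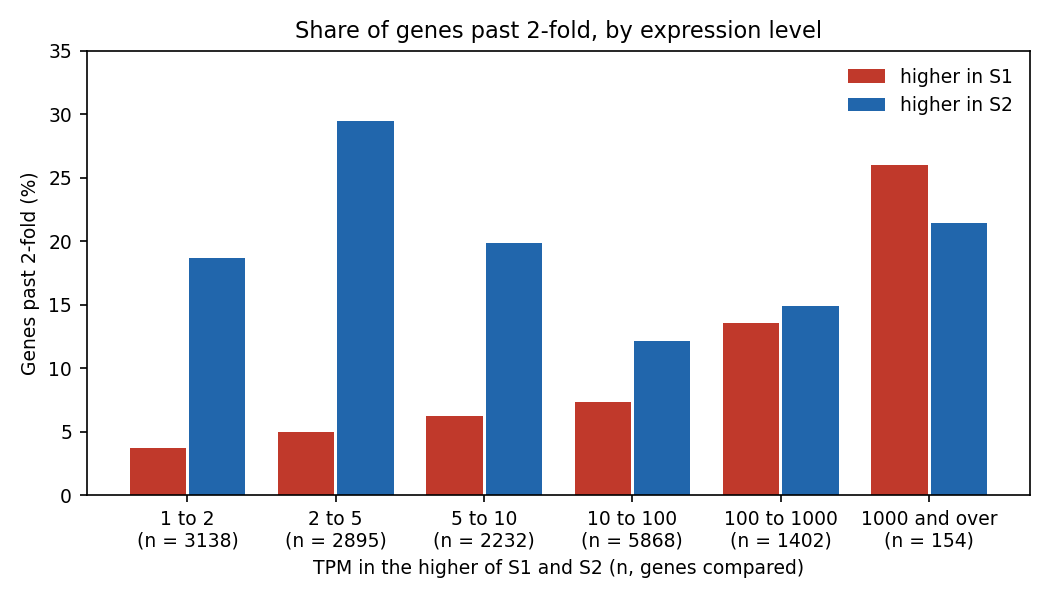
Share of genes past 2-fold in each direction (vertical, percent of the genes in the class) by TPM in the higher segment (horizontal), with the number of genes under each pair of bars. The S2 bar exceeds the S1 bar most between 2 and 5 TPM (29.5% against 4.97%), and at 1000 TPM and over the S1 bar is the taller (26.0% against 21.4%).

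In each RefSeq class counted, more genes were higher in S2 than in S1, as over all genes (18.1% and 6.77%). Among 12054 protein-coding genes 831 (6.89%) were higher in S1 and 1768 (14.7%) in S2, with a median difference of -0.04. Among 806 long noncoding RNAs the numbers were 41 (5.09%) and 178 (22.1%). Among 760 pseudogenes they were 30 (3.95%) and 137 (18.0%), the latter near the share over all genes. The small RNA classes differed most often. Of 158 small nucleolar RNAs, 82 (51.9%) were higher in S2 and 13 (8.23%) in S1. The library kit, per the labels, was built for very small inputs and amplified the cDNA over 10 to 12 cycles, and TPM of such short genes can rest on few reads.

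RNA of other cell types was also unequal between the columns. All 12 endothelial markers were higher in S2, with summed levels of 83.0 TPM in S1 and 773 in S2. Plvap, a protein of capillary fenestrae, was at 29.6 and 275 TPM. All 11 measured immune markers of 13 were higher in S2 (summed level 59.0 and 318 TPM, of which Cd74 made up 50.1 and 193). Of 12 stromal markers 8 were measured and 5 were higher in S2 (12.3 and 36.8 TPM). Cspg4, on neither side, made up 9.2 and 12.5 TPM of these sums. The 5 stromal markers higher in S2, and immune markers such as Csf1r (0.5 and 32 TPM), were under 1 TPM in S1. They entered the comparison through S2 alone, so a call in favour of S1 was not possible for them. Markers of the collecting duct went the other way: 3 of 12 were measured and these 3 were higher in S1, Aqp3 for example at 28.3 and 5.2 TPM. Another of the 3, Slc26a4, was at 1.2 and 0.1 TPM. It entered through S1 alone, so a call in favour of S2 was not possible for it. The podocyte gene Nphs1, which encodes nephrin, and all red cell markers were below 1 TPM in both. Of 7 podocyte markers 4 were measured, with Podxl higher in S2 (1.4 and 13.4 TPM), Magi2 higher in S1 (10.5 and 2.5 TPM) and the others on neither side. Of 5 thick ascending limb markers 2 were measured, Umod, uromodulin (0.2 and 21.1 TPM), and Egf (3.3 and 19 TPM), both higher in S2. Umod entered through S2 alone. The markers not measured were below 1 TPM in both columns, the transporter Slc12a1 for example at 0.4 and 0.3. Summed levels over the list were 4.0 and 40.5 TPM. Of 5 markers of the distal convoluted tubule 2 were measured, and 1 of these was higher in S2 (summed level 8.5 and 19.0 TPM). Mitochondrially encoded transcripts took 6.50% of the TPM total in S1 and 16% in S2. These shares are of the listed values, in which 6 of 13 mitochondrially encoded protein genes were at 0 in both columns. The part of these differences in the results below was not tested, and fewer cells of a type and less RNA per cell cannot be told apart in such samples.

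The motif GTTAAT was looked for in promoters of genes on both sides, and is shown where it was found near the start of an abundant or strongly unequal gene, chosen after the search. The window searched ran from 250 bases before to 50 after each annotated start (RefSeq, GRCm38.p6), on both strands. A promoter entry was found for 13 of the 15 genes most in favour of S1 and 9 of the 15 most in favour of S2. Shown are the 120 bases before the outermost annotated start of 4 genes higher in S1 (Slc34a1, Cltrn, Gc and Rnf186) and 3 higher in S2 (Slc5a10, Guca2b and Kap), 5′ to 3′ on the gene's strand. Capitals mark GTTAAT or its reverse complement ATTAAC, and in Kap the TATA box TATAAA.
Slc34a1: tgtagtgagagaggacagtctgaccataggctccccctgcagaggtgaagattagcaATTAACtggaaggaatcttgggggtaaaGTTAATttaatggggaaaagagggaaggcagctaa
Cltrn: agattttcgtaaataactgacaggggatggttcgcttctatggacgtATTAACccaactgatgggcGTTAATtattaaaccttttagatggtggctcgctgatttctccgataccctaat
Gc: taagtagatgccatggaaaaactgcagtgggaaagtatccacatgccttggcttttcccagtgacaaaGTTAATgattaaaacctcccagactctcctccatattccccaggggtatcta
Rnf186: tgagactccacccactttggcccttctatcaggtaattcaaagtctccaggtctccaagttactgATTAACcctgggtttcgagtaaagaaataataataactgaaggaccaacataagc
Slc5a10: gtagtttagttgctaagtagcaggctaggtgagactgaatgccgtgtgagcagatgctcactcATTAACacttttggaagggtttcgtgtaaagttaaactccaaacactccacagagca
Guca2b: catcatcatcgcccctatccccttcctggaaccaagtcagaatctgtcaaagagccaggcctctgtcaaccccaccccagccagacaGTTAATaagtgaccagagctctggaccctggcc
Kap: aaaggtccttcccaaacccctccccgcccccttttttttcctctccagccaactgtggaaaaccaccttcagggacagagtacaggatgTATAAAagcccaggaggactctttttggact

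Slc34a1, the main renal phosphate carrier, and Cltrn, collectrin, a chaperone of apical amino acid transporters, each held the motif in both orientations. In Slc34a1 (chr13:55399502-55399621, plus strand) the copies began 63 and 35 bases before the start, and in Cltrn (chrX:164090067-164090186, plus strand) 73 and 54. Gc (chr5:89457899-89458018, minus strand), the vitamin D-binding protein, had 1 copy beginning 52 bases before the start. Rnf186 (chr4:138966999-138967118, plus strand), a ubiquitin ligase, had 1 at 55. On the S2 side, Slc5a10 (chr11:61720818-61720937, minus strand), the mannose and fructose carrier SGLT5, had 1 at 57. Guca2b (chr4:119658946-119659065, minus strand), which encodes the natriuretic peptide uroguanylin, had 1 at 33. In Kap (chr6:133853668-133853787, minus strand) the TATA box began at 31.

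Over all genes with a promoter entry, GTTAAT occurred in 10.1% of 676 genes higher in S1, 7.91% of 1442 higher in S2, 6.16% of 10249 compared genes and 8.24% of all 27025 genes of the table. The nuclear receptor motif AGGTCA occurred in 21.9%, 17.8%, 15.5% and 18.1% of the same groups. For the TATA box the shares were 13.5%, 14.3%, 9.24% and 15.7%, and for the HNF4 site CAAAGTCCA 1.04%, 1.04%, 0.595% and 0.555%. The median number of CG dinucleotides per window was 17, 14, 21 and 8. A match is a run of letters and not a measured binding site.

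Sodium-coupled uptake of sugars rested on different genes in the columns. In S1 the low-affinity carrier Slc5a2 was accompanied by the basolateral glucose channel Slc2a2 (GLUT2), at 223 TPM in S1 and 43.9 in S2, a 5.07-fold difference. In S2 the high-affinity carrier Slc5a1 (SGLT1) stood at 58.5 TPM, against 0.1 in S1, and Slc5a10 at 493 against 0.4. Slc2a5, the fructose transporter GLUT5, was alike at 115 and 131 TPM. Over the list of glucose and hexose transport, 3 of 10 measured members were higher in S1 and 2 higher in S2, against 6.77% and 18.1% of all genes.

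Lactate carriers paired in a similar manner. The low-affinity carrier Slc5a12 was under 1 TPM in S2, as given above, while the high-affinity carrier Slc5a8 was listed at 0 in S1 and stood at 45.7 TPM in S2. Slc16a1, the monocarboxylate transporter MCT1, was at 32.4 and 3.3 TPM. Slc13a2, which takes up citrate and other dicarboxylates from the urine, was 12.0-fold higher in S2 (9.6 and 115 TPM). Slc26a1, a basolateral sulfate exchanger, was 4.16-fold higher in S1 (164 and 39.3 TPM).

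The brush-border phosphate carriers Slc34a1 and Slc34a3 were higher in S1, and Slc34a1 also kept a high level in S2 (10241 and 2227 TPM, a 4.60-fold difference). The phosphate carriers Slc20a1 (9.5 and 15.7 TPM) and Slc20a2 (18.3 and 24.7 TPM) had lower values in S1, under 2-fold. Kl, the klotho co-receptor of the phosphaturic hormone FGF23, was at 135 TPM in S1 against 45.3 in S2, and Pth1r, the parathyroid hormone receptor, at 379 and 552. Of the 12 genes of phosphate transport and its regulators, 3 were higher in S1 and 1 in S2, with a median difference of -0.36.

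Bicarbonate is reclaimed by proton secretion at the brush border, carbonic anhydrases and a basolateral sodium-bicarbonate carrier. Of 10 measured members 5 were higher in S1 and 2 in S2, with a median difference of 1.22 against -0.18 for all genes. The basolateral carrier Slc4a4 was 5.96-fold higher in S1 (686 and 115 TPM). Cytosolic carbonic anhydrase Car2 was at 1133 and 218 TPM and membrane-bound Car12 at 211 and 23.4. Car4, an anhydrase anchored to the luminal membrane, went the other way, at 38.7 TPM in S1 and 171 in S2. The sodium-proton exchangers crossed as well: Slc9a3 (NHE3), the main apical exchanger of this tubule, was at 52.5 and 11.4 TPM, and Slc9a8 (NHE8) at 18.7 and 408. Aqp1, the water channel of the proximal tubule and of capillaries, was 11.6-fold higher in S2 (33.0 and 383 TPM). Claudin-2, which makes the paracellular route leaky to cations and water, was alike at 260 and 272 TPM (Cldn2).

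Neutral amino acid uptake at the brush border divided between a pair of neighbouring genes on chromosome 13. Slc6a19 (B0AT1, 73679745 to 73700780) was at 874 TPM in S1 against 19.2 in S2, a 45.5-fold difference. Slc6a18 (B0AT3, 73661750 to 73678023) was at 5.4 and 1133 TPM, a 210-fold difference in the other direction. The cystine carrier's subunits also parted: Slc7a9, the light chain, was at 471 and 170 TPM and Slc3a1, its heavy chain rBAT, at 317 and 774. Slc6a13, a GABA and taurine carrier, was 5.96-fold higher in S2 (38.5 and 230 TPM). Of 15 measured apical carriers, 4 were higher in S1 and 6 in S2, which became 5 and 4 after median-of-ratios scaling.

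Exit of amino acids through the basolateral membrane was mainly an S1 feature of the list. Of 8 measured members 6 were higher in S1 and 2 in S2, with a median difference of 2.70. Slc3a2 (4F2hc), the heavy chain that carries several exchangers to the membrane, was 12.2-fold higher (1161 and 95.1 TPM). Its partners Slc7a7, for cationic amino acids, and Slc7a8, for neutral ones, were 16.9-fold (664 and 39.2 TPM) and 20.4-fold higher (471 and 23.1 TPM). Slc43a2, a uniporter of branched-chain and aromatic amino acids, was 22.2-fold higher (140 and 6.3 TPM). The members higher in S2 were Slc38a3, a glutamine carrier (0.3 and 66.8 TPM), and Slc1a4, an exchanger of small neutral amino acids (0.4 and 16 TPM).

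**Figure D3:**
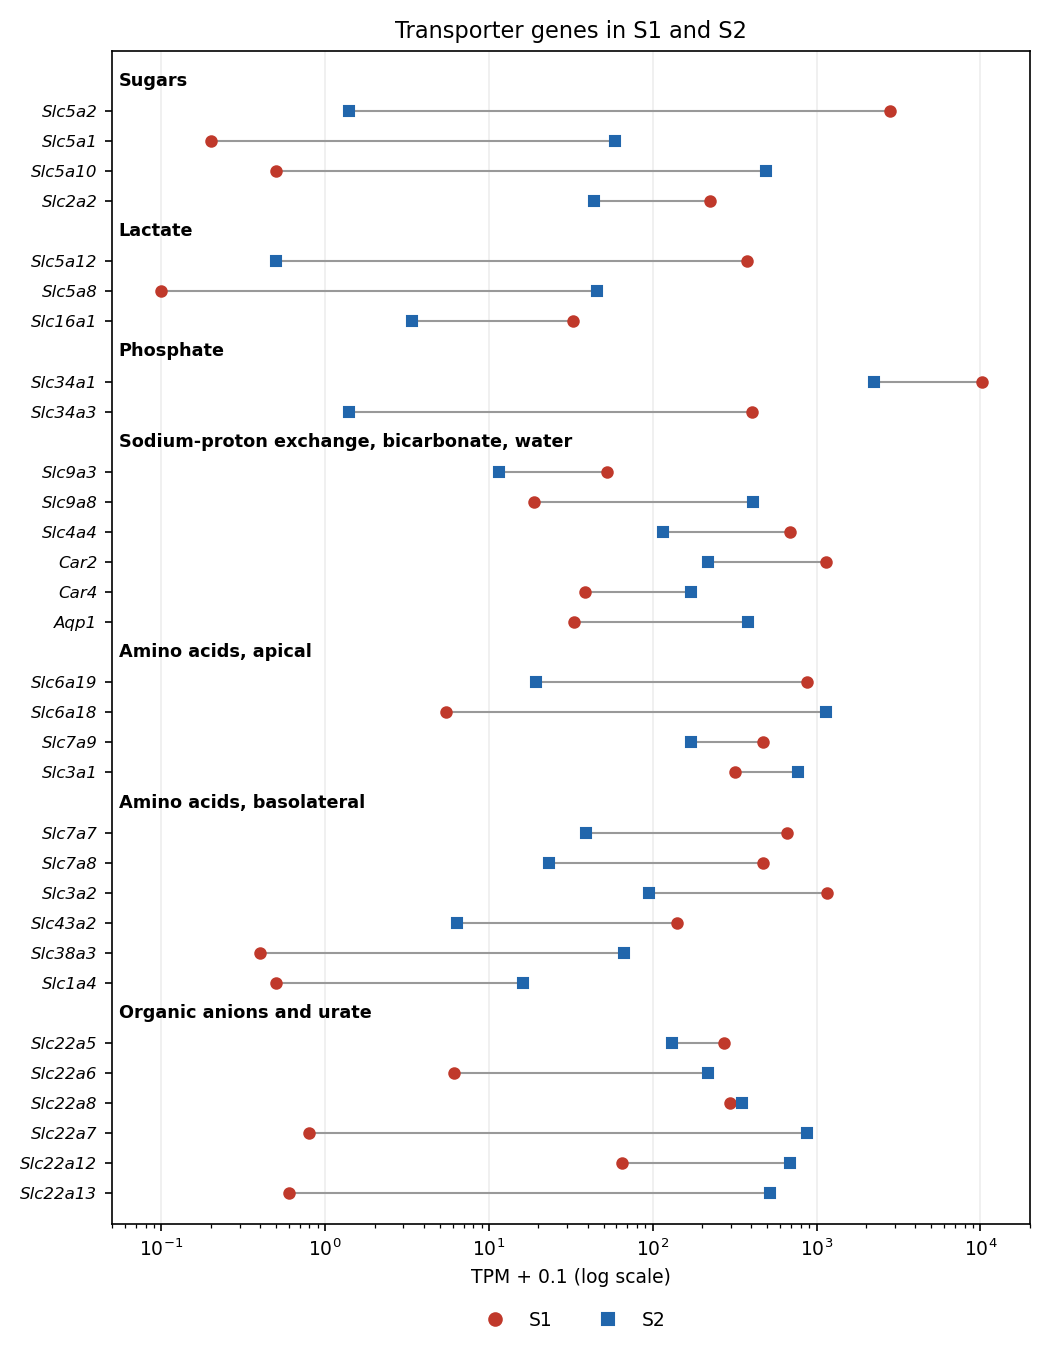
Level of named transporters in S1 (red circles) and S2 (blue squares), as TPM + 0.1 on a log axis, grouped by cargo, with a line joining the 2 values of a gene. Some carriers of the same cargo lie on opposite sides, as with Slc6a19 (874 and 19.2 TPM) and Slc6a18 (5.4 and 1133 TPM).

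Carriers of organic anions, cations and urate belonged mostly to S2. Of 31 measured members 18 were higher in S2 and 2 in S1, with a median difference of -1.74. Slc22a6 (OAT1), which takes up organic anions from blood, was 36.1-fold higher in S2 (6.0 and 217 TPM). Slc22a7 (OAT2) was at 0.7 and 877 TPM, and Slc22a12, the luminal urate exchanger URAT1, was 10.6-fold higher (64.8 and 687 TPM). Slc22a2, the organic cation transporter OCT2, was 8.59-fold higher (32.5 and 279 TPM), and Slco1a6, an organic anion-transporting polypeptide, 24.2-fold (12.6 and 304 TPM). The members higher in S1 were Slc22a5 (OCTN2), the carnitine carrier (274 and 131 TPM), and Slc17a4, an anion transporter (8.2 and 1.1 TPM).

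All solute carriers taken by symbol numbered 262 in the comparison, and 41.2% differed 2-fold against 24.9% of all genes, 41 higher in S1 and 67 in S2, an order that turned to 79 and 47 after median-of-ratios scaling. Claudins higher in S2 numbered 6 of 10 (60%), with none higher in S1, against 18.1% and 6.77% of all genes. Among the 6, Cldn3, Cldn5, Cldn19 and Cldn23 were under 1 TPM in S1. They entered the comparison through S2 alone, so a call in favour of S1 was not possible for them. Cldn3 was listed at 0 in S1 and at 50.2 TPM in S2, and Cldn7 was at 2.2 and 36.5 TPM. Both are claudins of tighter epithelia found in later nephron segments. Measured markers of those segments went both ways, as given above, and the source of this RNA was not tested.

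Hydrolases of the brush border, which split filtered peptides, sugars and phosphate esters, were divided with 6 of 15 on each side and 3 on neither. Higher in S1 were Alpl, alkaline phosphatase (1129 and 161 TPM), and Dpep1, a dipeptidase that also acts on the glutathione breakdown product cysteinylglycine (422 and 20.1 TPM, 21.0-fold). Folh1, a glutamate carboxypeptidase, was at 177 and 30.5 TPM, Xpnpep2, an aminopeptidase for proline peptides, at 41.6 and 4.5, and Enpep, aminopeptidase A, at 55.6 and 21.7. On the S2 side, Ggt1, which starts the breakdown of extracellular glutathione, was 17.4-fold higher (75.1 and 1305 TPM). The meprin subunits Mep1a and Mep1b were at 47.7 and 686 TPM and at 0.2 and 276 TPM. Mme, neprilysin, was at 3.7 and 76.0 TPM, Ace, the angiotensin-converting enzyme, at 0.3 and 42.2, and Treh, trehalase, at 8.4 and 46.4. Endothelium makes Ace too, and its markers were higher in S2 as given above. In the scaffold that holds the brush border together 1 of 13 measured members was on each side, but 9 were higher in S1 after median-of-ratios scaling.

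Filtered protein is taken up by megalin and its partners and passed to lysosomes. Of 15 endocytosis genes 1 (6.67%) was higher in S1 and none in S2, against 6.77% and 18.1% of all genes. The S1 share was thus near that over all genes. After median-of-ratios scaling 10 were higher in S1. The gene past 2-fold was Dab2, the adaptor of megalin (436 and 129 TPM). Of the 15 differences 12 were above 0 and 3 below. Below 0 were, among others, Lrp2, which encodes megalin (143 and 228 TPM), and Cubn, cubilin (46 and 61.8 TPM). Of 17 lysosomal genes 8 were higher in S1 and 3 in S2, with a median of 0.75. The 3 higher in S2 were Ctss, Scarb2 and Napsa. The cysteine proteases Ctsb (1322 and 318 TPM) and Ctsl (1566 and 509 TPM) were 4.16-fold and 3.08-fold higher in S1. Legumain, Lgmn, was at 930 and 212 TPM, and Hexa, which trims glycolipids, was 15-fold higher (169 and 11.3 TPM). Of 17 measured subunits of the vacuolar ATPase, the proton pump of endosomes and lysosomes, 5 were higher in S1 and none in S2, with a median of 0.90. Atp6v1b2 was at 447 and 128 TPM and Atp6v1g1 at 362 and 118.

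Some genes of fuel use also differed between the segments. Of 10 gluconeogenic genes 4 were higher in S1 and none in S2. G6pc, glucose-6-phosphatase, was 5.27-fold higher (1044 and 198 TPM), Slc37a4, which brings it its substrate, 2.87-fold (827 and 288 TPM), and Pcx, pyruvate carboxylase, 2.84-fold (282 and 99.4 TPM). Pck1, the cytosolic carboxykinase, was alike at 2105 and 2136 TPM. Of 23 genes of pyruvate, acetate and the citrate cycle 10 were higher in S1 and none in S2 (median 0.86). Acss1, which activates acetate in mitochondria, stood out at 682 and 11.8 TPM. Isocitrate dehydrogenase Idh2 was at 762 and 199 TPM and Ogdh, of the oxoglutarate dehydrogenase complex, at 410 and 136.

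Of 15 measured glycolytic genes 5 were higher in S1 and 3 in S2, with a median of 0.70 and 12 differences above 0. Ldhb, the lactate dehydrogenase that favours lactate oxidation, was 3.37-fold higher in S1 (2824 and 837 TPM). Pkm, the muscle-type pyruvate kinase, was 26.4-fold higher in S2 (1.9 and 50.1 TPM), and Hk1, a hexokinase, was at 0.5 and 7.4 TPM. Pklr, the liver-type pyruvate kinase, was at 15.9 and 12.6 TPM. Pkm and Hk1 are made by many cell types, including those whose markers were higher in S2.

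The respiratory chain is encoded by nuclear and mitochondrial genes, and their differences had opposite signs. Of 24 nuclear genes of the chain and ATP synthase 1 was at least 2-fold higher in S1 and none in S2, with 23 differences above 0 and a median of 0.68. After median-of-ratios scaling 22 were at least 2-fold higher in S1. Of 13 mitochondrially encoded protein genes 6, among them mt-Co2 and mt-Atp6, were listed at 0 in both columns. Of the 7 measured, 6 were higher in S2, with a median of -1.12. That count was 3 after quantile normalization and 0 after median-of-ratios scaling. The gene mt-Co1 was at 9619 and 26268 TPM and mt-Nd1 at 11606 and 32279. The nuclear member past 2-fold was Cycs, cytochrome c (323 and 111 TPM).

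Fatty acid handling split between binding proteins. Fabp3, the heart-type binding protein, was at 639 and 8.8 TPM. Cd36, a fatty acid translocase, was 169-fold higher in S2 (1.5 and 253 TPM), and Fabp4, the adipocyte and endothelial binding protein, 10.3-fold (9.6 and 98.9 TPM). Capillary endothelium expresses Cd36 and Fabp4, and all 12 endothelial markers were higher in S2. Slc27a2, a very-long-chain acyl-CoA synthetase, was 6.84-fold higher in S2 (611 and 4180 TPM), and Acsl5, a long-chain one, 9.13-fold (5.3 and 48.4 TPM). Of 16 uptake, binding and activation genes 8 were higher in S2 and 3 in S1, but 6 on each side after median-of-ratios scaling.

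In the mitochondrial breakdown of fatty acids 5 of 23 genes (21.7%) were higher in S2 and 1 (4.35%) in S1, near the shares over all genes (18.1% and 6.77%). The order turned to 3 and 10 after median-of-ratios scaling. Acadm, medium-chain acyl-CoA dehydrogenase, was 8.59-fold higher in S2 (276 and 2368 TPM) and Bdh1, which interconverts ketone bodies, stood at 0.4 and 241 TPM. Acaa2, the mitochondrial thiolase, was 6.08-fold higher in S1 (1138 and 187 TPM). In peroxisomes 7 of 21 genes were higher in S2 and 1 in S1, which turned to 4 and 7 after median-of-ratios scaling. Among those higher in S2 were Ehhadh, the bifunctional enzyme (77.7 and 666 TPM), and Acox2, the oxidase of branched chains and bile acid intermediates (5.9 and 178 TPM). The peroxisomal thiolases parted, with Acaa1a at 268 and 89.9 TPM and Acaa1b at 72.5 and 453. These are near-identical copies, so reads could be split between them in either column.

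Cholesterol synthesis held 4 of 21 genes (19.0%) on each side, against 6.77% of all genes higher in S1 and 18.1% higher in S2. The S2 share was thus near that over all genes. After median-of-ratios scaling 8 were higher in S1 and 4 in S2. Cyp51, lanosterol demethylase, was 17.4-fold higher in S2 (15.6 and 271 TPM). Fdps, farnesyl diphosphate synthase, was 3.50-fold higher in S1 (43.1 and 12.3 TPM) and Msmo1, a methylsterol oxidase, 2.68-fold (38 and 14.2 TPM).

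Amino acid breakdown was divided by pathway step, with 10 of 36 measured genes higher in S1 and 12 in S2, which became 15 and 9 after median-of-ratios scaling. In S1 the genes of arginine synthesis stood together: Ass1 (452 and 134 TPM) and Asl (492 and 68.5 TPM), which make arginine from citrulline. Gatm, which uses arginine for the first step of creatine synthesis, was 21.8-fold higher in S1 (4072 and 187 TPM). Gamt, which completes creatine, was 3.71-fold higher in S2 (25.8 and 95.7 TPM), and Arg2, the mitochondrial arginase, was at 0.2 and 107 TPM. Odc1, the first enzyme of polyamine synthesis, was at 417 and 108 TPM.

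Other catabolic enzymes were as unequal. Gldc, of the glycine cleavage system, was 3.43-fold higher in S1 (162 and 47.1 TPM). Hpd, an enzyme of tyrosine breakdown, stood at 0.9 TPM in S1 and 295 in S2. Aadat, an aminotransferase of lysine and tryptophan breakdown, was 134-fold higher in S2 (30.2 and 4049 TPM). The choline and glycine enzymes Bhmt2 (0.9 and 167 TPM) and Dmgdh (0.8 and 85.8 TPM) were on the same side. Cth, which makes cysteine, was 5.33-fold higher in S2 (54.0 and 288 TPM).

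Cysteine feeds glutathione, and the genes that make glutathione were higher in S2. The subunits of its rate-limiting ligase, Gclc (37.3 and 199 TPM) and Gclm (181 and 646 TPM), were 5.35-fold and 3.57-fold higher, and the synthetase Gss was 2.42-fold higher (234 and 565 TPM). Some steps of its turnover were on that side too. Ggct, which splits gamma-glutamyl peptides, was at 9.5 and 214 TPM and Cndp2, a dipeptidase, at 64.3 and 734 TPM. Nat8, which acetylates cysteine conjugates, was at 6.8 and 200 TPM. Dpep1, which acts on a glutathione breakdown product as given above, went the other way (422 and 20.1 TPM). Oplah was on neither side (48.6 and 88.2 TPM). Gpx3, the secreted peroxidase that consumes glutathione, had the highest level in S1 of all compared genes and was 8.98-fold higher there (114421 and 12746 TPM). Over the list 7 of 17 measured members were higher in S2 and 4 in S1.

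**Figure D4:**
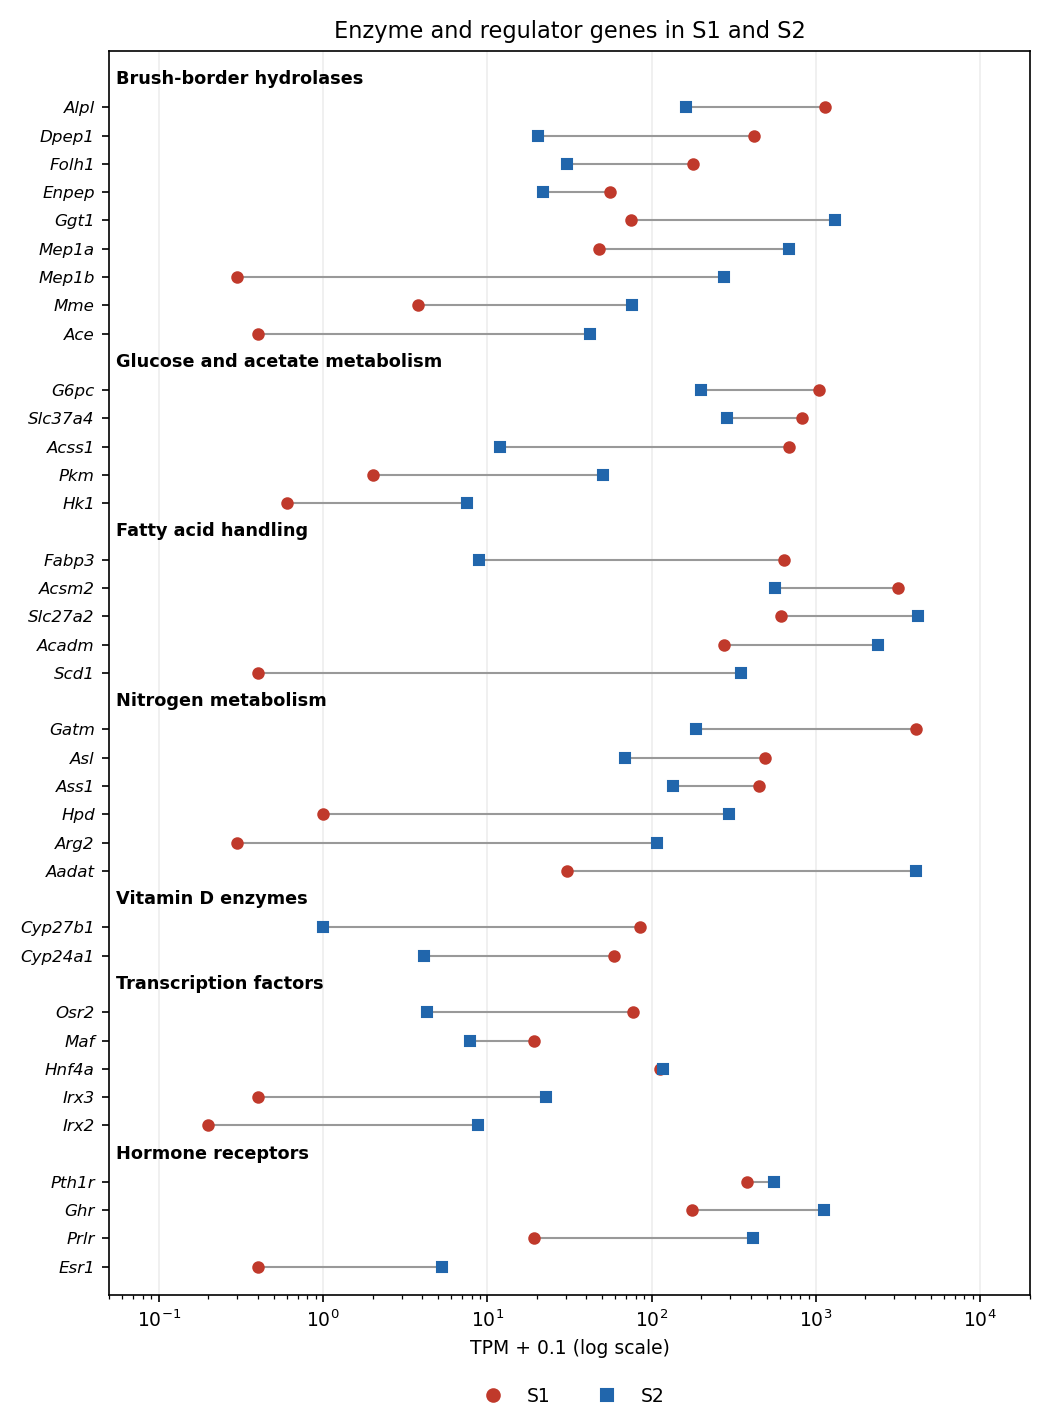
Level of named enzymes, transcription factors and receptors in S1 (red circles) and S2 (blue squares), as TPM + 0.1 on a log axis, with a line joining the 2 values of a gene. The hydrolases show both directions, from Dpep1 (422 and 20.1 TPM) to Ggt1 (75.1 and 1305 TPM), and the hormone receptors Prlr and Ghr lie higher in S2.

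Vitamin D enzymes of opposite effect were on the same side. Cyp27b1, which makes the active hormone, was at 85.0 TPM in S1 against 0.9 in S2, and Cyp24a1, which degrades it, was 14.6-fold higher in S1 (58.5 and 4.0 TPM). Gc, the carrier of vitamin D whose promoter is shown above, was 41.4-fold higher in S1 (721 and 17.4 TPM). Of 10 genes of vitamin D handling, a list without Gc, 4 were higher in S1 and none in S2. Stra6, a receptor for the retinol carrier, was at 58.3 and 0.7 TPM, and 5 of 11 measured retinoid genes were higher in S2, a count of 1 after median-of-ratios scaling.

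Enzymes acting on foreign compounds and lipids differed within families. Of 40 measured cytochromes P450, 8 (20%) were higher in S1 and 13 (32.5%) in S2, against 6.77% and 18.1% of all genes, and 13 and 11 after median-of-ratios scaling. Cyp2d26 was 5.60-fold higher in S1 (812 and 145 TPM), and Cyp4a10, a fatty acid hydroxylase, 28.8-fold higher in S2 (23.4 and 674 TPM). Cyp2a4 was at 0.5 and 613 TPM and its near-identical neighbour Cyp2a5 at 34.4 and 57.3, a split that depends on how shared reads were assigned. Among 20 glutathione S-transferases, Gstt1 was 4.56-fold higher in S1 (317 and 69.5 TPM) and Gstm1 8.33-fold higher in S2 (239 and 1994 TPM). Of 15 measured prostaglandin and eicosanoid genes 8 were higher in S2 and 4 in S1. Ptgds, which makes prostaglandin D2, was at 423 and 0.6 TPM, and Hpgd, which inactivates prostaglandins, at 0.9 and 54.5.

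Hnf4a, a transcription factor of proximal tubule identity, differed under 2-fold, at 112 and 117 TPM. Osr2, an odd-skipped zinc finger factor, was 18.3-fold higher in S1 (76.9 and 4.2 TPM), its relative Osr1 was at 2.9 and 0.3 TPM, and Maf was at 19.1 and 7.7. Homeobox genes of the Iroquois group, which pattern the nephron, were on the S2 side: Irx3 at 0.3 and 22.7 TPM, Irx2 at 0.1 and 8.7, and Irx1 listed at 0 in S1 and at 3.4 in S2. Nfib was 4.60-fold higher in S2 (4.8 and 22.1 TPM). Of 22 measured tubule transcription factors 7 (31.8%) were higher in S2 and 3 (13.6%) in S1, against 18.1% and 6.77% of all genes, but 5 on each side after median-of-ratios scaling.

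Hormone receptors leaned to S2. Of 7 measured receptors for steroids, prolactin and growth hormone 4 were higher in S2 and none in S1, with a median of -2.12. Ghr, the growth hormone receptor, was 6.38-fold higher (176 and 1126 TPM) and Prlr, the prolactin receptor, 21.7-fold (19.1 and 414 TPM). The estrogen receptor Esr1 was at 0.3 and 5.2 TPM.

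**Figure D5:**
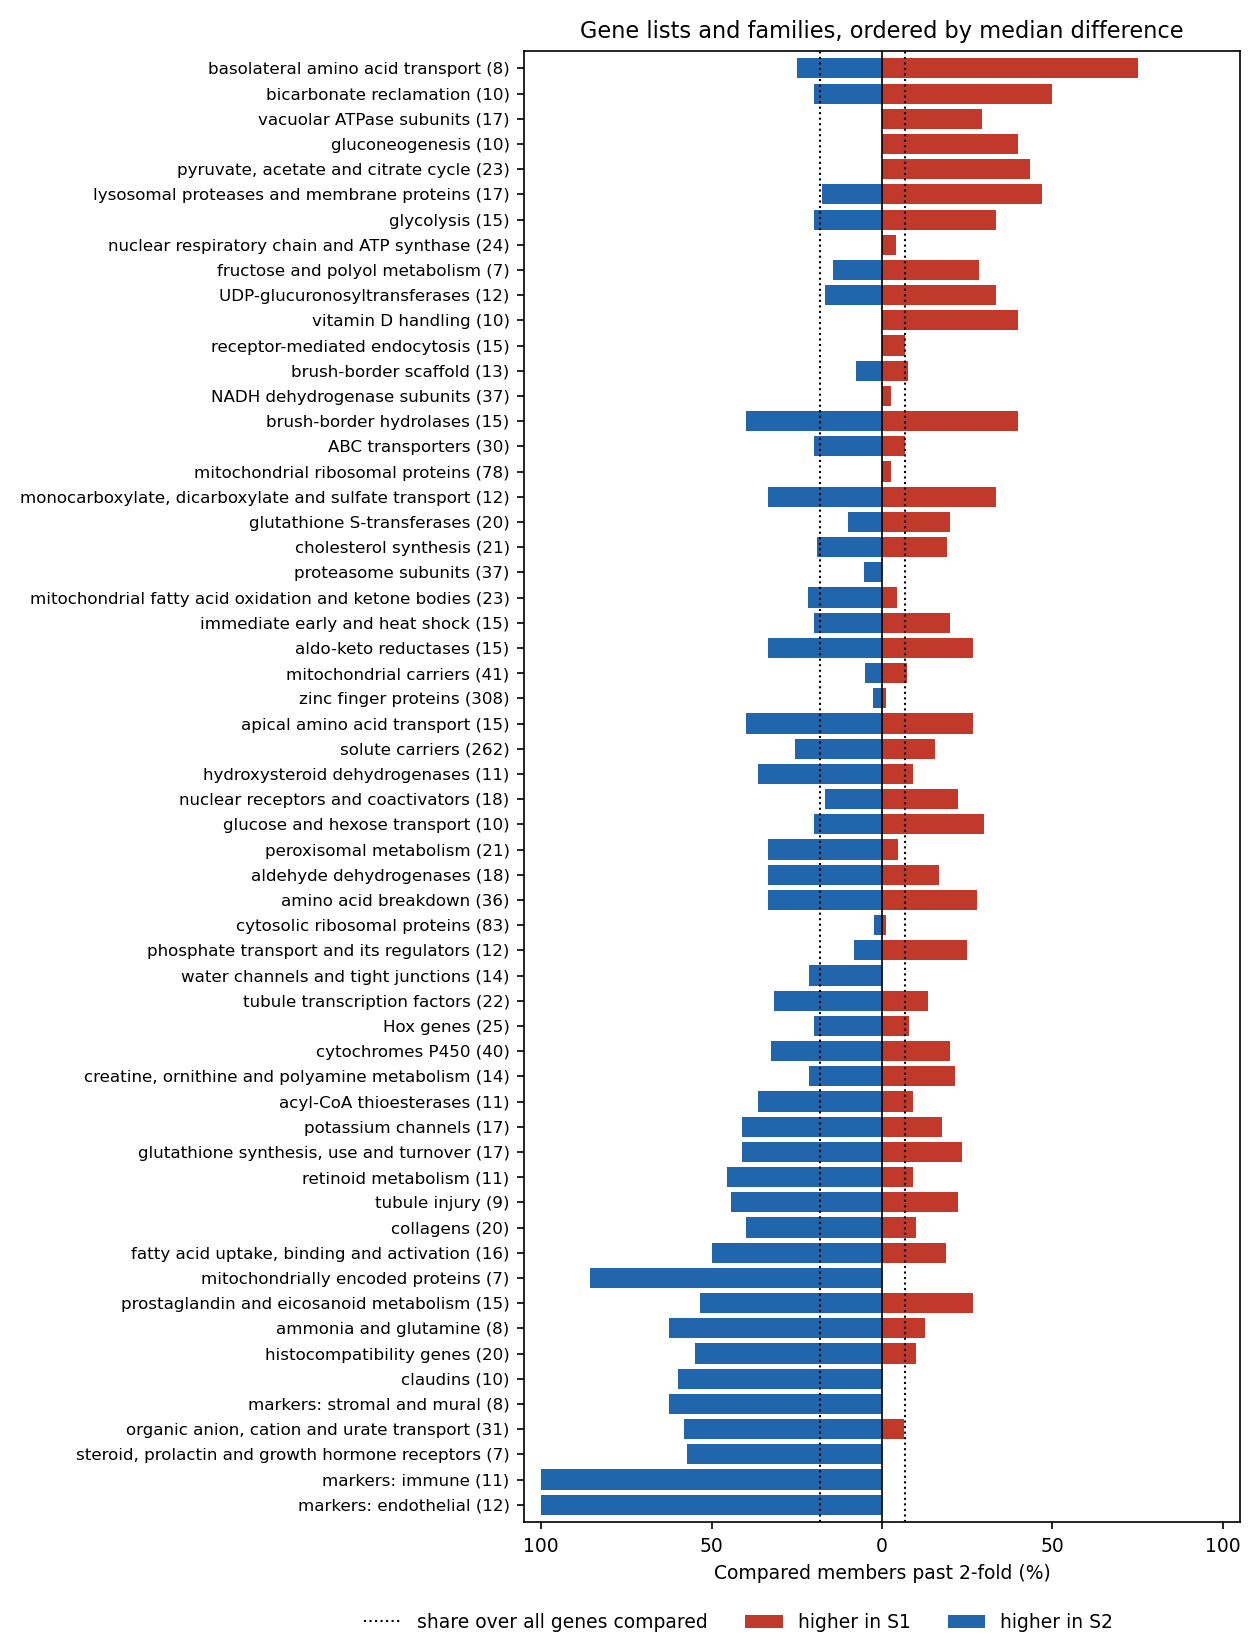
Share of the compared members of each gene list or family that were at least 2-fold higher in S1 (red, to the right) or in S2 (blue, to the left), ordered by median difference, with the number compared in brackets; dotted lines mark the shares over all genes, 6.77% and 18.1%. The endothelial and immune markers reach 100% on the S2 side, and cytosolic ribosomal proteins stay near 0 on both.

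In families that most cells express, fewer genes were past 2-fold. Of 83 measured cytosolic ribosomal protein genes 3.61% were past 2-fold, of 78 mitochondrial ones 2.56%, of 37 subunits of the proteasome 5.41% and of 308 zinc finger proteins named Zfp 3.90%, against 24.9% of all genes. After median-of-ratios scaling 37 of the 78 mitochondrial ribosomal protein genes were higher in S1. Abundant genes close to equal in the columns included Fth1, the ferritin heavy chain (13870 and 11688 TPM), Spink1, a trypsin inhibitor (5921 and 6839 TPM), Igfbp7 (3865 and 3826 TPM) and Actb, cytoplasmic actin (1795 and 1621 TPM).

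Genes that differed in the same direction were often neighbours. Of 11019 pairs of adjacent compared genes at most 100000 bases apart, a gene higher in S1 was followed by another in 115 of 716 pairs (16.1%), against 6.72% of all pairs. For genes higher in S2 it was 458 of 1685 pairs (27.2%), against 15.7% of all pairs. Opposite neighbours, such as Slc6a18 and Slc6a19, numbered 181 pairs. Runs of at least 3 were found 12 times for S1, taking in 41 genes, and 91 times for S2, taking in 306.

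Several runs were gene families. On chr19:7673075-7966517 (GRCm38.p6) the compared organic anion carriers from Slc22a19 to Slc22a27 were higher in S2. On chr12:103688044-103904950 lie the serpins Serpina1f, Serpina1d, Serpina1a and Serpina1c, copies between which reads may be shared, and on chr4:115486200-115647721 the fatty acid hydroxylases Cyp4a14, Cyp4a10, Cyp4a31 and Cyp4b1. Immune genes formed others, including the Gimap cluster on chr6:48684578-48845948, whose 4 members lie beside Tmem176b and Tmem176a. The longest S1 run, of 5 genes on chr8:104534694-104635841, held Cdh16, the kidney cadherin (1382 and 443 TPM), and Car7, a carbonic anhydrase (9.3 and 4.0 TPM). Another on chr6:34303930-34396949 held the aldose reductases Akr1b3, Akr1b8 and Akr1b10, of which Akr1b3 was at 20.4 and 3.9 TPM.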

How the data were processed

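RNA-seq of hand-dissected tubules was made, per the labels' protocols, with Direct-zol RNA MicroPrep, SMARTer V4 cDNA (10 to 12 PCR cycles) and Nextera XT, and read as 50-base pairs. No molecular identifier or strand marking is named, so PCR copies and reads of overlapping genes cannot be told apart. The authors deposited gene values in TPM, 1 column per group, rounded to 1 decimal. The submitters' processing notes name STAR, RSEM, cutadapt, Bowtie2, Picard, SAMtools, MACS2 and mm10; which of these made the table, and how libraries were combined, was not given in the sources used here. Of 8 value columns 2 were used and 6 were not. The 24 ATAC libraries were not analysed here.

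From the deposited TPM, S1 minus S2 was computed on log2(TPM + 1), pseudocount 1, for genes of at least 1 TPM in either column. This scale understates the change of low genes. Plain TPM ratios are used only for genes that reach 1 TPM in both columns. With 1 value per gene and segment no test was run and no depth is known. The 2-fold call alone was tested on simulated data, built from genes of at least 10 TPM in S1. Genes of lower level, and the lists, neighbours and promoters, were not tested in this way. Python 3.11.15, pandas 2.3.3 and numpy 2.4.6 were used.

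Genes named are, in each direction, among the 15 with the greatest difference and the 10 with the highest TPM in the higher column (at least 10 TPM, passing over predicted, mitochondrial and small RNA symbols), the 10 most abundant that were close to equal, and members of 47 gene lists and 22 symbol families. Some genes that this rule takes are left out here. Family members, neighbours and promoters named outside these were chosen after their values were seen. The lists and members were chosen with earlier results of these data known. Symbols are from the table (54409 gene IDs matched a reference, 27 symbols turned into dates were restored); positions and promoters are RefSeq, GRCm38.p6. Alternatives were other pseudocounts, filters, scalings and a 4-fold call.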

Additional observations from a re-analysis of the deposited data

How the results depend on the processing

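No paired analysis was possible because the table gives 1 value per gene and segment, and by the title numbers the segments shared no animal; no library could be left out. The 1062 genes higher in S1 and 2840 higher in S2 became 1334 and 4598 with a pseudocount of 0.1, 575 and 994 with 5, 802 and 1401 with a filter of TPM 5, 1408 and 1868 after quantile normalization, 3720 and 1610 after median-of-ratios scaling, and 292 and 846 at 4-fold. Without mitochondrially encoded genes, Gpx3 and Kap they were 955 and 3414, and without a filter 1062 and 2840. Median-of-ratios scaling over genes of at least 1 TPM in both, chosen after seeing the data, gave 1016 and 2850. The motif GTTAAT occurred in 10.7% of promoters of genes 4-fold higher in S2. Under median-of-ratios scaling the median difference turned positive for glucose, phosphate and apical amino acid transport, peroxisomal metabolism, amino acid breakdown, tubule transcription factors, solute carriers, cytochromes P450 and cytosolic ribosomal proteins. With a filter of TPM 5 the median of the brush-border hydrolases turned from 0.34 to -0.26, and of the tubule injury list from -0.87 to 0.01. The cause of these changes was not tested.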

Other observations

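Some groups that belong to no comparison above follow, beside 6.77% of all genes higher in S1 and 18.1% higher in S2. Histocompatibility genes were higher in S2 for 11 of 20 measured members and in S1 for 2. H2-Aa, a class II chain of antigen-presenting cells, stood at 12.3 and 66.5 TPM in S1 and S2, beside the 11 immune markers that were all higher in S2, and H2-DMb1, which loads peptide on class II molecules, went the other way at 50.8 and 8.7 TPM. Psmb8, a subunit of the immunoproteasome, was at 4.8 and 23.7 TPM. Among mitochondrial carriers, 3 of 41 measured members (7.32%) were higher in S1 and 2 (4.88%) in S2, and 15 and 0 after median-of-ratios scaling. Slc25a4, the ADP and ATP exchanger, was 5.02-fold higher in S1 (888 and 177 TPM).

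Of 17 measured potassium channels 7 (41.2%) were higher in S2 and 3 (17.6%) in S1, which turned to 4 and 6 after median-of-ratios scaling. Their median turned from -0.81 to 0.66 with a filter of TPM 5. Kcnj16, a basolateral channel subunit of the tubule, was 3.19-fold higher in S1 (409 and 128 TPM), and Kcnk1, a background channel, was at 0.5 and 382 TPM. Among acyl-CoA thioesterases 4 of 11 were higher in S2 and 1 in S1, with Acot7 10.9-fold higher in S2 (27.3 and 298 TPM). Of 8 measured genes of ammonia and glutamine metabolism 5 were higher in S2 and 1 in S1. Scd1, which desaturates fatty acids, was at 0.3 and 352 TPM. Xist, the RNA that silences 1 X chromosome in female cells, was at 11.7 and 27.9 TPM, and the Y-linked genes of the list were below 1 TPM in both columns.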
